A study of Mus musculus with 12 samples.

Results

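The genes of the IL-1 and IL-18 receptor family were followed in RNA-seq data of murine CD4+ T cells that had been polarized in culture. The 6 members were taken by their gene symbols: Il1r1, Il1r2, Il1rl1, Il18r1, and Il18rap encode receptor chains, and Il1rn encodes the secreted antagonist of the IL-1 receptor. Of 11247 genes listed in either of the deposited tables, 5 were members. Il1r2, Il18r1, and Il18rap had a row in both tables, Il1r1 only in the Th17 table, and Il1rn only in the iTreg table, while Il1rl1 had no row in either table used here. The authors had removed genes without more than 1 CPM in at least 4 samples, so a missing row is no measurement of 0.

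The 12 libraries came from naïve CD4+CD62L+ T cells of spleens of C57BL/6 mice aged 8 to 10 weeks, and all cells were activated on plates with anti-CD3 and anti-CD28 at 1 µg/ml each and collected on day 3. Th0 cells (4 libraries) received no polarizing cytokines, Th17 cells (4 libraries) received IL6 at 30 ng/ml, TGFβ1 at 5 ng/ml, and neutralizing anti-IL4 and anti-IFNγ at 10 µg/ml each, and iTreg cells (4 libraries) received IL2 and TGFβ1 at 10 ng/ml each according to the labels, although the study's methods give a higher TGFβ1 dose. Each library is a separate in vitro culture of purified splenic cells. Libraries are named here by their column headings, in which the ending gives the group (1 for Th0, 5 for Th17, 4 for iTreg) and the beginning (M22, M29, M42, or M43) recurs once in every group. Libraries that share a beginning are called a set.

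Receptors of this family pair a chain that binds the cytokine with an accessory chain, and the joined intracellular domains recruit the adaptor MYD88, IRAK kinases, and TRAF6, which leads to NF-κB and MAP kinase activity. IL1R1 binds IL-1 and signals with IL1RAP, IL1R2 binds IL-1 as a decoy without a signalling domain, and the IL1RN protein occupies IL1R1 without starting a signal. IL18R1 and IL18RAP together form the IL-18 receptor, and IL1RL1 (ST2) is the IL-33 receptor chain. In T cells, IL-1 is known for its role in Th17 responses, IL-18 for its action with IL-12 in Th1 responses, and ST2 for its presence on Th2 cells and tissue regulatory T cells.

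Values are FPKM, in which fragments are divided by the length of the transcript and by the size of the library. The lengths that were used are not given in the sources. Orders of level between genes and percentages of one chain to another rest on these lengths, while comparisons of the same gene between libraries do not. A gene entered the limma test of log2(FPKM + 1) where 4 or more of 8 libraries exceeded 1 FPKM, and it was called DE at a Benjamini-Hochberg FDR of 0.05. Fold changes are on this scale, which understates the change of low genes, and SE is the standard error. Exact permutation tests are two-sided with 70 arrangements of the 8 libraries and cannot give a p below 0.029. These arrangements ignore the sets. Arrangements within sets would be fewer and were not run. The main limma fit and the fits that left out a library also took no account of the sets. The p-values measure the spread between these cultures, which in all these tests includes differences between sets. In bulk RNA, fewer expressing cells and less RNA per cell cannot be told apart. The block value is given where it changes a call or where a call was lost without a library, and refers to the fit with the set as a block.

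The labels were checked first. Il17f was 0.0909 to 0.184 FPKM in Th0 and 281 to 788 FPKM in Th17 cells. Il17a, which had a row only in the Th17 table, was 0 to 0.114 FPKM in Th0 and 7.27 to 65.2 FPKM in Th17 cells. Foxp3 was 62.0 to 91.7 FPKM in iTreg and 2.01 to 7.15 FPKM in Th0 cells. The iTreg libraries also carried Il17f at 26.9 to 99.2 FPKM. The Th17 library M43_5 stood apart with Foxp3 at 42.5 FPKM, while the other Th17 libraries had 0.499 to 4.50 FPKM. The M42 libraries had the lowest Cd4 of each group, at 81.3 FPKM in Th0, 33.8 FPKM in Th17, and 78.2 FPKM in iTreg cells. Relative depth, read from the steps between low values, was 0.843 to 1.08 times the median library in the Th17 table and 0.825 to 1.19 times in the iTreg table.

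The receptor genes lie side by side. On chromosome 1 of GRCm38 (mm10; GENCODE M21 annotation), a span of 478 kb from 40074079 to 40551705 holds 6 protein-coding genes, all on the plus strand, in the order Il1r2, Il1r1, Il1rl2, Il1rl1, Il18r1, and Il18rap. The other 4 annotated genes of the span had no row in either table. Il1r2 reaches from 40074079 to 40125231, Il1r1 from 40225080 to 40317257, Il1rl1 from 40429570 to 40465415, Il18r1 from 40465552 to 40500854, and Il18rap from 40515362 to 40551705. Only 137 bases separate the end of Il1rl1 from the start of Il18r1. Il1rn lies apart, on chromosome 2 from 24336853 to 24351494 on the plus strand. The exons of the 6 members share no base with another annotated gene, so by this annotation the unstranded counting could not mix them with a neighbour. The map of the cluster with fold changes shows no single direction across it: in Th17 cells the up-regulated Il1r1 lies between Il1r2 and Il1rl2, whose point estimates were both below 0, and in iTreg cells the pair Il18r1 and Il18rap at the end of the cluster was up-regulated while Il1rl2 was down-regulated.

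**Figure D1:**
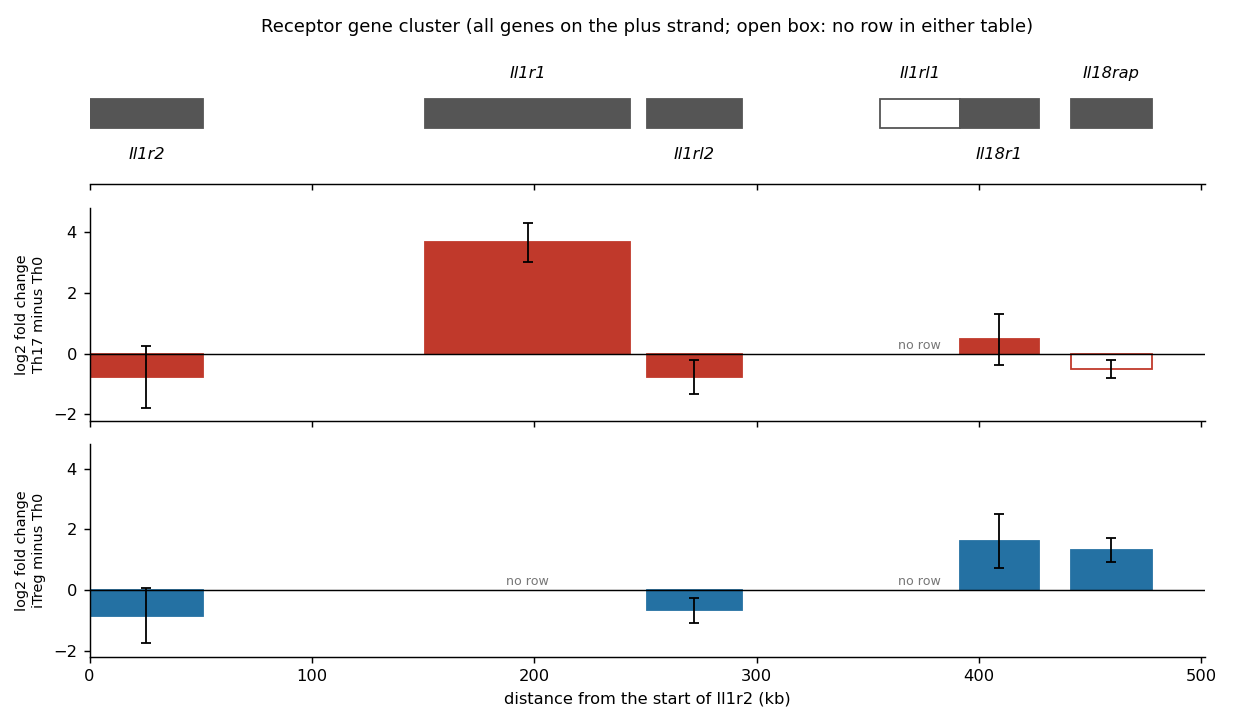
Map of the receptor gene cluster (boxes to scale; distance from the start of Il1r2 in kb) above the log2 fold change of FPKM + 1 of each gene in Th17 and iTreg cells against Th0 cells, with 95% intervals from limma. The bar of Il1r1 reaches 3.67 in Th17 cells, those of Il18r1 and Il18rap reach 1.60 and 1.32 in iTreg cells, and the open bar marks Il18rap in the Th17 table, which was under the filter on low values.

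RefSeq promoter windows (GRCm38.p6, 250 bases before to 50 after a transcript start) were given for all 6 members, 12 windows in all. The windows below, 1 for each gene, belong to the 5 genes with values, and are shown because these genes differ in their response although 4 of them share a cluster. The capitals mark matches, on either strand, to the letters of 6 transcription factor motifs.
Il1r1, chr1:40224830-40225129, plus strand: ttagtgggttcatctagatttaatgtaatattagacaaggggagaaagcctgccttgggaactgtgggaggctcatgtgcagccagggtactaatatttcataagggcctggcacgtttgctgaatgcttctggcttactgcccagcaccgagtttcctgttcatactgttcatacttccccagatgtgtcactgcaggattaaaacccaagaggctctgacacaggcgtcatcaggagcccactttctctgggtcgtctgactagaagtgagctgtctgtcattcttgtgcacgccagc
Il1r2, chr1:40085843-40086142, plus strand: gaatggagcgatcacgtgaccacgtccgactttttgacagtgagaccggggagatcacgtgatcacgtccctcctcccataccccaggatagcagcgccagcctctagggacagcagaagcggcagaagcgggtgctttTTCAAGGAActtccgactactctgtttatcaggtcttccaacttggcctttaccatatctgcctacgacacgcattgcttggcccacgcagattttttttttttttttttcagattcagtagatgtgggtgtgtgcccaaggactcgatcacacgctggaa
Il18r1, chr1:40465756-40466055, plus strand: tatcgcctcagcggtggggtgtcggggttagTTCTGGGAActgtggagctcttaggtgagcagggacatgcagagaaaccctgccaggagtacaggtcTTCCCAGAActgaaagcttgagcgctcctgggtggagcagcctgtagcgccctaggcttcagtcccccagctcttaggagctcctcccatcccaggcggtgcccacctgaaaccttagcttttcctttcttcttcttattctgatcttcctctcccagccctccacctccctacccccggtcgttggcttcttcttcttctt
Il18rap, chr1:40515112-40515411, plus strand: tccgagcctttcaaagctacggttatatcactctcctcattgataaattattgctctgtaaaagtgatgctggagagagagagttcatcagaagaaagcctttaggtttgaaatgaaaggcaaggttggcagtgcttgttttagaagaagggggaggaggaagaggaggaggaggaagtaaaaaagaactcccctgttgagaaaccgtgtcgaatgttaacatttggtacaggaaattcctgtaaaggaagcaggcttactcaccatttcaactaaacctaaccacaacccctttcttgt
Il1rn, chr2:24336610-24336909, plus strand: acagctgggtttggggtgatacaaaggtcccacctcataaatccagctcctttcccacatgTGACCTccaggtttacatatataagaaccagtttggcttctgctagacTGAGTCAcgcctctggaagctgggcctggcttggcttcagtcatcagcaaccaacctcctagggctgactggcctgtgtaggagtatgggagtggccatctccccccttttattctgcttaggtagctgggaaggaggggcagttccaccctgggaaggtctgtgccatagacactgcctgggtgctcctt

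The letters searched for STAT factors were TTCNNNGAA. Of 3 Il18r1 windows, the most downstream, which is shown, held them at 2 places, 219 and 152 bases before its start site, and the 2 others, among them the window at the start of the annotated gene, held no match to any motif. The Il1r2 window held them at a single place, 111 bases before the start. Of 32851 RefSeq windows of the same length, 8.30% held them. The first Il1rn window held the AP-1 letters TGANTCA, found in 7.81% of windows, 141 bases before the start. It also held the nuclear receptor half-site AGGTCA on the other strand, as 16.3% of windows did on either strand, and the second window of Il1rl1 held it on the gene's own strand. The letters AGATAA, searched for GATA factors and found in 11.2% of windows, were in both windows of Il1rl1. NF-κB was searched as GGGNNTTTC, found in 4.36% of windows, and was in 2 overlapping later windows of Il1rn, at the same place. The T-box letters GGTGTGA, found in 3.98% of windows, were in none of the 12 windows. Within a window, no match overlapped another. The 2 windows of Il1r1, of which the first is shown, and the window of Il18rap held none of the searched letters. These are matches of letters in short windows and no evidence of binding.

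Of the 3 members tested in the Th17 table, 1 was DE in Th17 compared to Th0 cells, beside 19.3% of all 10269 tested genes (10.6% up-regulated and 8.69% down-regulated). Il1r1 mRNA, which encodes the signalling IL-1 receptor chain, went from close to 0 in Th0 to the highest level of any member in Th17 cells. Il18r1 was DE only with the block, and Il1r2 likewise in the other direction. With the block, 3 of 3 members were DE beside 37.8% of all tested genes, 2 of them up-regulated.

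Il1r1 was at 0, 0.152, 0.0215, and 0.0638 FPKM in the Th0 libraries M22, M29, M42, and M43, and at 21.3, 14.9, 11.3, and 6.55 FPKM in the Th17 libraries of the same order. The groups did not overlap, as held for 23.8% of the tested genes, and the lowest Th17 library was M43_5, the library with high Foxp3. The group means were 13.5 ± 6.24 FPKM in Th17 and 0.0593 ± 0.0671 FPKM in Th0 cells (SD, n = 4 each). The log2 fold change was 3.67 (SE 0.29, limma adjusted p = 6.7e-05), and without M43_5 it was 3.95 (adjusted p = 3.0e-05). Il1r1 passed the filter only through its 4 Th17 libraries, so that it could be tested at all depended on its being high there.

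The FPKM of a gene lies on steps that correspond to whole reads, and the smallest whole numbers that give the Il1r1 values are 0, 6, 1, and 3 reads in Th0 and 877, 721, 497, and 297 reads in Th17 libraries. At the relative depth of the libraries, this is a ratio of 228 (95% interval 124 to 477, which covers counting error only). The lowest level in Th17 cells thus rests on 297 reads, and the level in Th0 cells on 10 reads over 4 libraries. In the iTreg table Il1r1 had no row.

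Of 7 listed markers of macrophages and dendritic cells, 2 had a row in the Th17 table, Cd68 and Itgam. Their sum was 3.34 to 5.03 FPKM in Th0 and 5.58 to 16.5 FPKM in the Th17 libraries, where Il1r1 was also higher. The sum does not show how each of them changed. Itgam had no row in the iTreg table, which shares the Th0 libraries, so that it was listed depended on its level in the Th17 libraries. The part of these markers in the Il1r1 result was not tested. In the iTreg table only Cd68 had a row, at 3.19 to 4.85 FPKM in Th0 and 2.61 to 7.19 FPKM in iTreg libraries. The listed markers Adgre1, Csf1r, Lyz2, Itgax, and Cd14 had no row in either table, which is no measurement of 0. Nor had any of 5 neutrophil and 3 NK and innate lymphoid markers. Of 5 mast cell and basophil markers, only Kit had a row, in the iTreg table, at 0.0206 to 0.560 FPKM in Th0 and 0.193 to 0.972 FPKM in iTreg libraries. The CD4 T cell markers with a row (5 of 6) summed to 738 to 1673 FPKM in Th0, 523 to 1048 FPKM in Th17, and 587 to 903 FPKM in iTreg libraries. Cd8b1 was at 2.52 to 6.60, 3.22 to 5.89, and 2.19 to 5.52 FPKM in the 3 groups in this order, and the B cell marker Cd79a at 0.646 to 3.84 FPKM in Th0 and 0.586 to 2.49 FPKM in Th17 libraries, with a lower maximum in iTreg libraries, while Cd8a, Cd79b, and Ms4a1 had no row.

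Il1r2, the decoy receptor, was at 5.26, 2.65, 0.483, and 2.47 FPKM in the Th0 libraries and at 1.28, 2.32, 0.170, and 0.579 FPKM in the Th17 libraries (M22, M29, M42, and M43). The Th17 library was below the Th0 library in 4 of 4 sets, by ratios of 0.234 to 0.873, but the groups overlapped, and the libraries of a group differed by up to 10.9 times in Th0 and 13.7 times in Th17 cells. The log2 fold change was -0.77 (SE 0.45, limma adjusted p = 0.28), and with the block the adjusted p was 0.036 (SE 0.22). Without M43_5 it was -0.67 (adjusted p = 0.43). These levels rest on 53, 28, 6, and 31 reads in Th0 and 14, 30, 2, and 7 reads in Th17 libraries.

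Il18r1, the IL-18-binding chain, was at 5.05, 3.28, 1.38, and 2.71 FPKM in Th0 and 6.69, 4.73, 1.77, and 5.95 FPKM in Th17 libraries. The Th17 library was above the Th0 library in every set, by ratios of 1.28 to 2.19, while the groups overlapped. The log2 fold change was 0.47 (SE 0.37, limma adjusted p = 0.42), with a 95% interval of -0.36 to 1.31, and with the block the adjusted p was 0.026 (SE 0.13). Without M43_5 it was 0.35 (adjusted p = 0.61). The values stand for 181, 123, 61, and 121 reads in Th0 and 261, 218, 74, and 256 reads in Th17 libraries, a ratio of 1.59 (95% interval 1.42 to 1.78, counting error only).

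Il18rap, the accessory chain of the IL-18 receptor, was at 1.09, 0.677, 1.19, and 1.16 FPKM in Th0 and 0.326, 0.340, 0.373, and 0.704 FPKM in Th17 libraries. Only 3 libraries were over 1 FPKM, so it was under the filter. The groups overlapped at a single point, M43_5, which at 0.704 FPKM was above the Th0 library M29_1 at 0.677 FPKM. The means were 0.436 ± 0.180 FPKM in Th17 and 1.03 ± 0.240 FPKM in Th0 cells (SD, n = 4 each), with a difference of -0.50 on the log2 scale (exact permutation p = 0.057). In a limma fit of all listed genes without the filter, where 19.5% were DE, the adjusted p was 0.028, and 0.0091 with the block. The first of these calls was lost when any of 6 libraries was left out (M22_1, M22_5, M29_5, M42_1, M42_5, or M43_1) and kept without M29_1 or M43_5, with adjusted p from 0.014 to 0.081. The values stand for 40, 26, 54, and 53 reads in Th0 and 13, 16, 16, and 31 reads in Th17 libraries, a ratio of 0.419 (95% interval 0.316 to 0.552, counting error only).

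**Figure D2:**
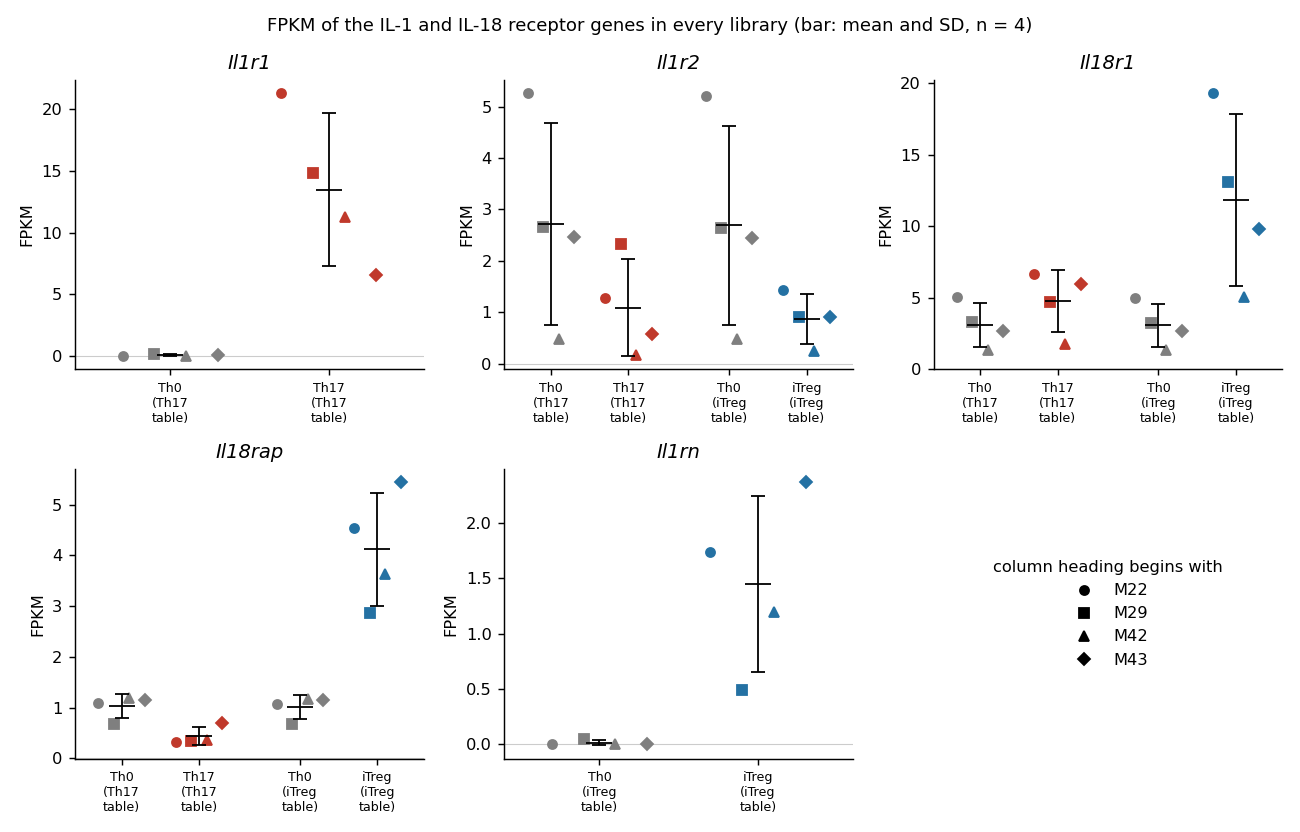
FPKM of the 5 members with a row in every library of the Th17 and iTreg tables, with the shape of a point giving the beginning of the column heading and bars giving the mean and SD (n = 4). Il1r1 is near 0 in all Th0 libraries and 6.55 to 21.3 in Th17 libraries, Il18r1 and Il18rap are higher in all iTreg libraries than in all Th0 libraries, and M42 (triangles) is the lowest point of each Il1r2 and Il18r1 group.

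In iTreg compared to Th0 cells, 2 of the 3 tested members were DE and both were up-regulated, beside 16.6% of all 10208 tested genes (8.36% up-regulated and 8.21% down-regulated). They were the 2 chains of the IL-18 receptor, each about 4 times higher in iTreg cells. Il1r2 was not DE, but was with the block, where 3 of 3 members were DE beside 40.9% of all tested genes, and without the Th0 library M42_1. Il1rn, under the filter, was at 0 in 3 of 4 Th0 libraries and was measured in every iTreg library.

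Il18r1 was at 4.99, 3.25, 1.36, and 2.68 FPKM in Th0 and 19.4, 13.1, 5.04, and 9.84 FPKM in iTreg libraries (M22, M29, M42, and M43). The groups did not overlap, as held for 22.8% of the tested genes, but the lowest iTreg library, M42_4, at 5.04 FPKM was just above the highest Th0 library, M22_1, at 4.99 FPKM. Within sets the ratio of iTreg to Th0 stayed between 3.67 and 4.04. The means were 11.8 ± 6.01 and 3.07 ± 1.51 FPKM (SD, n = 4 each; exact permutation p = 0.029), and the log2 fold change was 1.60 (SE 0.39, limma adjusted p = 0.025). With the block the SE was 0.088 and the adjusted p 5.1e-05. Without the block the call was lost in 5 of 8 fits that left out a library, with an adjusted p of 0.060 without M22_4, 0.060 without M29_4, 0.055 without M42_1, 0.060 without M43_1, and 0.052 without M43_4. It was kept without M22_1 (0.027), M29_1 (0.046), or M42_4 (0.0088). The iTreg levels stand for 1010, 620, 217, and 421 reads, a ratio to Th0 of 4.13 (95% interval 3.74 to 4.57, counting error only).

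Il18rap was at 1.08, 0.671, 1.18, and 1.15 FPKM in Th0 and 4.53, 2.86, 3.63, and 5.44 FPKM in iTreg libraries. The lowest iTreg library was above the highest Th0 library, with ratios of 3.08 to 4.74 within sets. The means were 4.12 ± 1.12 FPKM in iTreg and 1.02 ± 0.236 FPKM in Th0 cells (SD, n = 4 each; exact permutation p = 0.029). The log2 fold change was 1.32 (SE 0.17, limma adjusted p = 0.0012), and it stayed past the FDR of 0.05 whichever library was left out (adjusted p up to 0.0058). In the Th17 table, which shares the Th0 libraries, Il18rap was under the filter. That it was tested here thus depended on its level in the iTreg libraries, which limits these tests. The ratio of reads was 3.98 (95% interval 3.37 to 4.72, counting error only), from 173 reads in Th0 and 778 reads in iTreg libraries.

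Il1r2 was at 5.20, 2.63, 0.477, and 2.44 FPKM in Th0 and 1.43, 0.904, 0.248, and 0.914 FPKM in iTreg libraries. The iTreg library was lower in 4 of 4 sets, with ratios of 0.275 to 0.519, while the groups overlapped through M42_1 (exact permutation p = 0.11). The log2 fold change was -0.84 (SE 0.40, limma adjusted p = 0.20), with an adjusted p of 0.0075 with the block. Without M42_1 it was -1.23 and DE without the block (adjusted p = 0.025). The iTreg values rest on 21, 12, 3, and 11 reads.

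Il1rn, the receptor antagonist, was at 0, 0.0469, 0, and 0 FPKM in Th0 and 1.74, 0.489, 1.20, and 2.37 FPKM in iTreg libraries. The Th0 group holds 1 read in all, and the iTreg libraries hold 51, 13, 29, and 57 reads. The groups did not overlap, as held for 22.8% of the tested genes. With Th0 values near 0, Il1rn could pass the authors' filter on low counts only through its iTreg libraries. That it was listed at all thus depended on its being high there, which limits the tests below. The means were 1.45 ± 0.798 and 0.0117 ± 0.0235 FPKM (SD, n = 4 each; exact permutation p = 0.029), a difference of 1.21 on the log2 scale. In the fit of all listed genes without the filter, where 16.8% were DE, the adjusted p was 0.0069 by limma. The ratio of reads was 133, with a 95% interval of 23.5 to 5280 for counting error, so its size is known only within wide limits. In the Th17 table Il1rn had no row.

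The other chains of the family were 5 genes of the list of receptor chains that are no members. Il1rl2, the IL-36 receptor chain that lies between Il1r1 and Il1rl1, was at 2.94 ± 0.911 FPKM in Th0 and 1.35 ± 0.592 FPKM in Th17 cells (log2 fold change -0.76, SE 0.24, limma adjusted p = 0.062; 0.0015 with the block; 0.033 without M42_1). In iTreg cells it was at 1.42 ± 0.332 FPKM, and its log2 fold change of -0.67 passed the test (SE 0.19, limma adjusted p = 0.040, and 0.0014 with the block). Without the block it did not pass when any of 6 single libraries was left out (M22_1, M22_4, M29_1, M42_4, M43_1, or M43_4, with adjusted p up to 0.096). Sigirr, an inhibitory chain, was at 36.0 ± 6.51 FPKM in Th0 and 43.4 ± 10.6 FPKM in Th17 cells (log2 fold change 0.25, SE 0.20, limma adjusted p = 0.44). It fell in iTreg cells, to 17.5 ± 2.23 FPKM from 35.6 ± 6.48 FPKM, by 0.97 on the log2 scale (SE 0.15, limma adjusted p = 0.0032). Il1rap, the accessory chain shared by IL1R1, IL1RL1, and IL1RL2, was at 1.33 ± 0.469 FPKM in Th0 and 1.04 ± 0.410 FPKM in Th17 cells (log2 fold change -0.19, SE 0.20, limma adjusted p = 0.55). In iTreg cells Il1rap was at 0.915 ± 0.285 FPKM (log2 fold change -0.26, SE 0.17, limma adjusted p = 0.36; 0.020 with the block). An antisense gene shares 4.86% of the exonic bases of Il1rap. Il1rapl1 and Il1rapl2 had no row in either table.

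**Figure D3:**
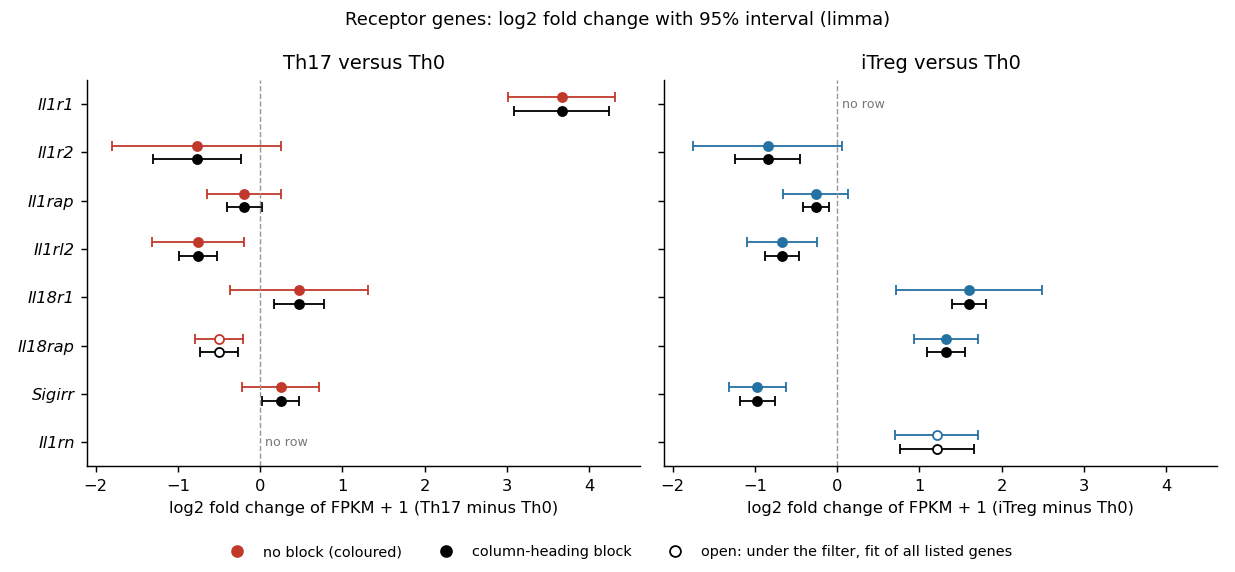
Log2 fold change of FPKM + 1 with 95% limma intervals for the receptor chains and Il1rn, in Th17 (left) and iTreg cells (right) against Th0 cells, without the block in colour and with the set as a block in black; open points are genes under the filter. The point estimates are equal in both fits, and the intervals of Il1r2 cross 0 only without the block.

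Across the groups, the levels took different orders. In Th0 cells Sigirr was far above the rest, Il18r1, Il1rl2, and Il1r2 were near 3 FPKM in the mean, Il1rap and Il18rap near 1 FPKM, and Il1r1 and Il1rn near 0. In Th17 cells Il1r1 came next to Sigirr, above Il18r1 with 4.78 ± 2.17 FPKM. In iTreg cells Il18r1 came next to Sigirr, followed by Il18rap. Il18r1 was lowest in Th0, intermediate in Th17, and highest in iTreg cells, but the Th0 and Th17 libraries overlapped, and the Th17 libraries (1.77 to 6.69 FPKM) also overlapped with the iTreg libraries (5.04 to 19.4 FPKM). Il18rap was lowest in Th17 (0.326 to 0.704 FPKM), and highest in iTreg cells (2.86 to 5.44 FPKM). No test was made between Th17 and iTreg cells. Both comparisons share the Th0 libraries, and the tables are scaled separately, with Th0 values 1.009 to 1.012 times higher in the Th17 table.

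The ratio of the 2 chains of the IL-18 receptor was compared within sets, which was chosen after the values were seen and is given as a description. Il18rap was 21.6, 20.7, 86.6, and 42.8% of Il18r1 in the Th0 libraries (M22, M29, M42, and M43). In the iTreg libraries of the same sets it was 23.4, 21.8, 72.1, and 55.3%, above the Th0 value in 3 of 4 sets and below it in M42. In the Th17 libraries it was 4.87, 7.18, 21.1, and 11.8%, below the Th0 value in 4 of 4 sets. The M42 set had the highest percentage in all groups, since its Il18r1 was low and its Il18rap was not. For the IL-1 receptor in Th17 cells, Il1rap, the accessory chain, amounted to 3.94 to 19.0% of Il1r1, and Il1r2, the decoy, to 1.51 to 15.6%.

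**Figure D4:**
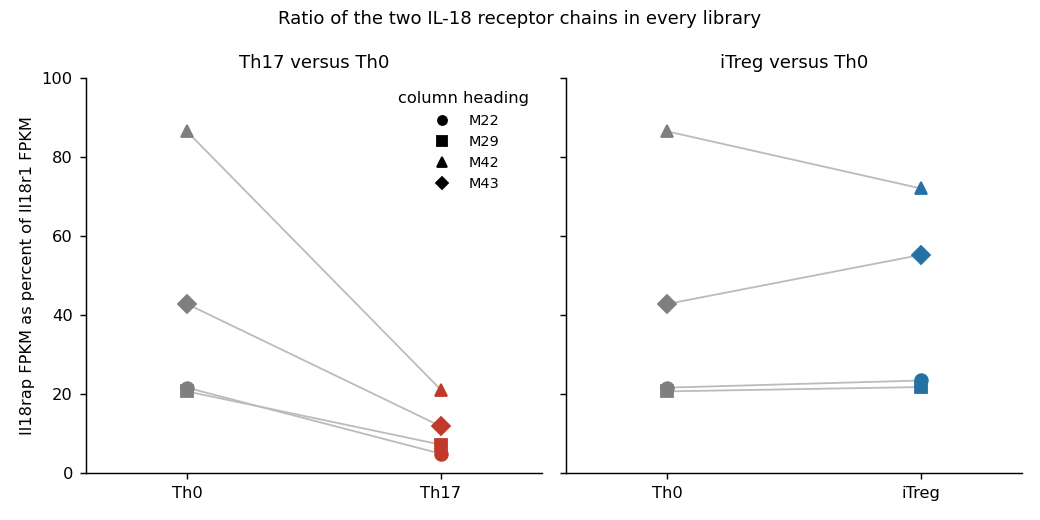
Il18rap FPKM as a percentage of Il18r1 FPKM in every library, with grey lines joining libraries whose column headings share a beginning. The percentage is 20.7 to 86.6 in Th0, 4.87 to 21.1 in Th17, and 21.8 to 72.1 in iTreg libraries.

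The spread between sets differed by gene. Il1r2 varied 10.9 times between the lowest and highest Th0 library and 13.7 times among Th17 libraries, and Il18r1 3.66 and 3.79 times, with M42 lowest each time. Il18rap varied 1.76 times among Th0 libraries, with M29_1 lowest and M42_1 highest, so that the low level of M42 was not shared by all members. The low Cd4 of the M42 libraries stands beside their low Il1r2 and Il18r1, and its part in them was not tested. Patterns were compared over 16 library values, in which each Th0 library enters from both tables and so weighs more than a treated library. The genes most like Il1r2 (the root mean square difference of log2(FPKM + 1) from the Th0 mean, among 10078 genes) were Ly9 at 0.345, Cd9 at 0.347, and Ece1 at 0.363. Those most like Il18r1 were Slc17a9 at 0.358, Piezo1 at 0.392, and Slc9a7 at 0.394.

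A list of 66 genes of the IL-1 pathway placed the receptors among their ligands, adaptors, and downstream factors. In Th17 cells 5 of 47 tested genes were up-regulated and 7 down-regulated (25.5% called, beside 19.3% of all tested genes), with a median log2 fold change of -0.12 beside -0.00071 for all tested genes, and with the block 9 and 12, where 37.8% of all tested genes were called. In iTreg cells 6 of 47 were up-regulated and 10 down-regulated (34.0% called, beside 16.6%), with a median of -0.11 beside 0.011, and with the block 8 and 18, where 40.9% of all tested genes were called. Without M43_5 the counts in Th17 cells were again 5 and 7. The list contains the members themselves and was chosen with earlier results of these data known. Its shares are thus a description and no test of the pathway. Where a gene is given for both comparisons, the Th0 mean is that of the Th17 table.

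Of 11 ligands and soluble antagonists, only Il1rn and Il18bp had a row. Il18bp, the soluble binding protein of IL-18, was at 2.95 ± 1.14 FPKM in Th0 and 2.63 ± 0.316 FPKM in Th17 cells (log2 fold change -0.08, limma adjusted p = 0.79), and at 2.18 ± 0.314 FPKM in iTreg cells (-0.26, adjusted p = 0.39). Il1a, Il1b, Il18, Il33, and the IL-36 genes had no row in either table.

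Among the adaptors, kinases, and ubiquitin ligases, 3 of 12 tested genes were up-regulated and 1 down-regulated in Th17 cells, beside 10.6% and 8.69% of all tested genes, and 3 and 2 in iTreg cells, beside 8.36% and 8.21%. Peli2, an E3 ligase of the Pellino family that acts on IRAK proteins, rose from 0.00571 ± 0.0114 FPKM in Th0 to 6.58 ± 3.12 FPKM in Th17 cells (log2 fold change 2.81, SE 0.29, limma adjusted p = 2.7e-04) and to 8.63 ± 3.31 FPKM in iTreg cells (3.19, SE 0.23, adjusted p = 5.7e-05). It passed the filter only through the 4 treated libraries of each table, so that it was tested at all depended on its level there. Irak2, a kinase of the receptor complex, fell in both, to 3.89 ± 0.938 FPKM in Th17 cells from 12.3 ± 0.582 FPKM (log2 fold change -1.46, SE 0.14, limma adjusted p = 1.9e-04) and to 6.06 ± 0.189 FPKM in iTreg cells (-0.90, SE 0.080, adjusted p = 1.8e-04). Traf6, the ubiquitin ligase downstream of MYD88, rose in iTreg cells from 28.4 ± 1.62 to 78.0 ± 6.23 FPKM (log2 fold change 1.42, SE 0.095, limma adjusted p = 4.0e-05). Myd88 rose in Th17 cells from 45.3 ± 6.27 to 68.2 ± 11.0 FPKM (0.58, SE 0.15, limma adjusted p = 0.026, and 0.0067 with the block). Without the block this call was lost without M22_1, M22_5, M29_5, or M43_1 (adjusted p up to 0.078).

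Of 14 NF-κB factors, inhibitors, and IKK subunits, 4 were down-regulated in Th17 cells and 2 in iTreg cells by limma at this FDR. Of all tested genes, 8.69% and 8.21% were down-regulated. None of the 14 was up-regulated in either comparison, beside 10.6% and 8.36% of all tested genes, so few up-regulated genes would be looked for in a group of this size. In iTreg cells the 2 called genes are 14.3% of the group, where 16.6% of all tested genes were called in either direction. Rel fell in Th17 cells from 35.3 ± 6.09 to 11.4 ± 1.69 FPKM (log2 fold change -1.54, SE 0.16, limma adjusted p = 2.7e-04). In iTreg cells Rel fell to 22.2 ± 1.84 FPKM (-0.62, SE 0.14, limma adjusted p = 0.018, and 0.0032 with the block). Without the block the iTreg call was lost without M22_1 or M43_1 (adjusted p up to 0.055). Nfkb2 fell in Th17 cells by 1.32 (SE 0.21, limma adjusted p = 0.0025) and Nfkbiz, a nuclear IκB protein, by 1.21 on the log2 scale (SE 0.18, adjusted p = 0.0020). Rela fell in iTreg cells by 0.30 (SE 0.085, limma adjusted p = 0.042, and 0.015 with the block). Without the block this call was lost whichever of the 8 libraries was left out (adjusted p from 0.050 to 0.12).

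Of 9 MAP kinase genes, 1 was DE in Th17 cells (11.1%, beside 19.3% of all tested genes) and 3 in iTreg cells (33.3%, beside 16.6%). Mapk9 rose in Th17 cells (log2 fold change 0.45, SE 0.090, limma adjusted p = 0.0086). In iTreg cells Map2k3, which activates p38, rose from 62.4 ± 14.2 to 145.8 ± 30.7 FPKM (1.22, SE 0.20, limma adjusted p = 0.0044), while Mapk14, which encodes p38α, fell from 40.7 ± 4.18 to 26.9 ± 0.775 FPKM (-0.57, SE 0.096, adjusted p = 0.0044). Map2k6 fell by 0.42 (SE 0.10, limma adjusted p = 0.026, and 0.0036 with the block), a call that was lost in the fits without the block that left out M22_1, M22_4, or M43_4. Of 5 tested genes of processing and release, the inflammatory caspases Casp1 and Casp4 fell in both comparisons. Of all tested genes, 8.69% were down-regulated in Th17 and 8.21% in iTreg cells. Casp1, which cleaves the IL-1β and IL-18 precursors, went from 8.36 ± 3.82 FPKM in Th0 to 0.836 ± 0.186 FPKM in Th17 cells (log2 fold change -2.22, SE 0.35, limma adjusted p = 0.0025) and to 1.07 ± 0.250 FPKM in iTreg cells (-2.04, SE 0.35, adjusted p = 0.0050). Casp4 went from 18.7 ± 7.05 FPKM in Th0 to 3.50 ± 0.858 FPKM in Th17 cells (-2.06, SE 0.30, limma adjusted p = 0.0017) and to 3.81 ± 1.47 FPKM in iTreg cells (-1.98, SE 0.34, adjusted p = 0.0048).

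**Figure D5:**
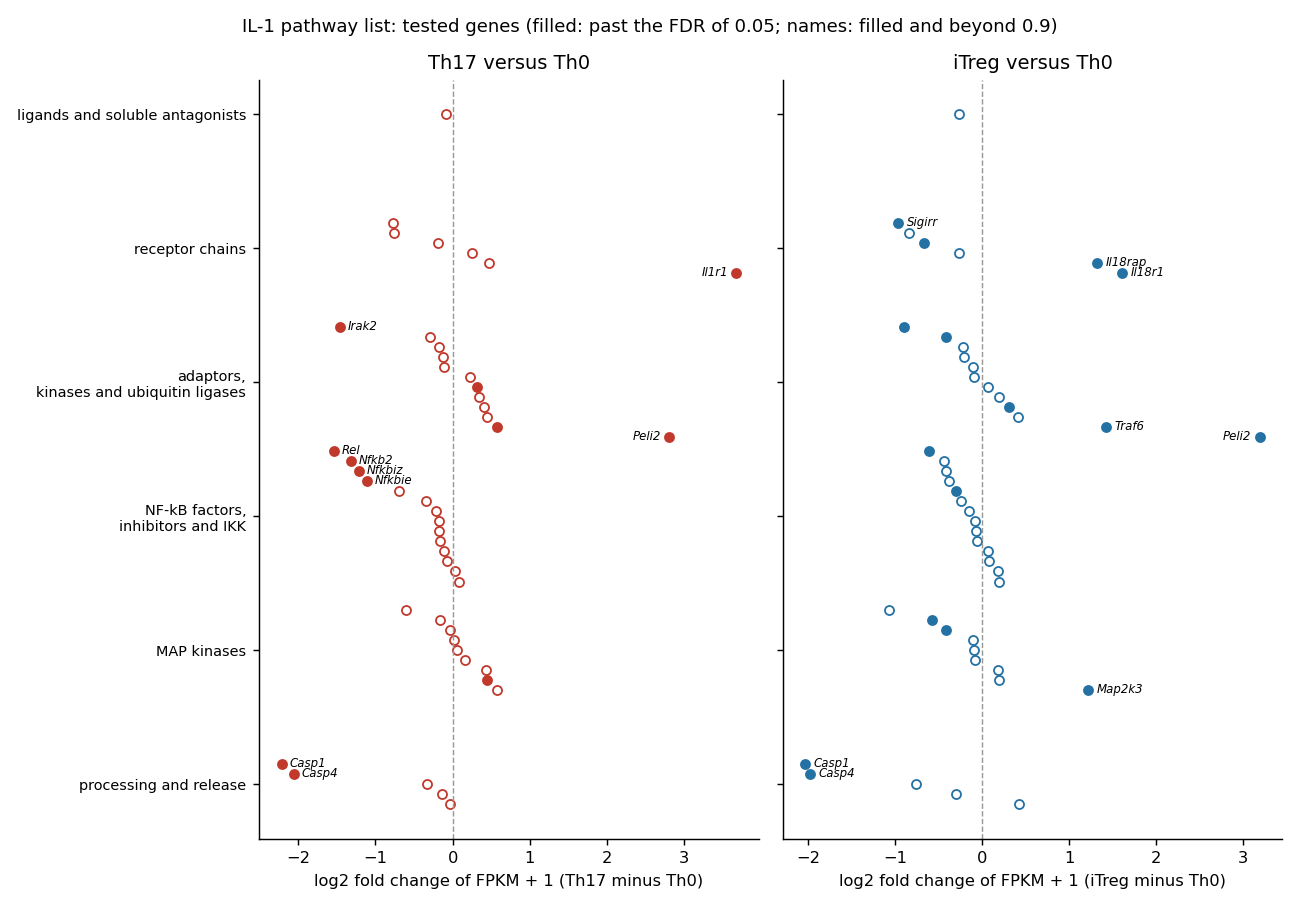
Log2 fold change of FPKM + 1 for the tested genes of the IL-1 pathway list by group, in Th17 (left) and iTreg cells (right) against Th0 cells; filled points passed the FDR of 0.05, and names are given for filled points beyond 0.9 in either direction. Among the 14 NF-κB genes the filled points, 4 in Th17 and 2 in iTreg cells, lie below 0, and Il1r1 and Peli2 are the rightmost points in Th17 cells.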

How the data were processed

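RNA-seq of Th0, Th17, and iTreg cells (4 libraries each, day 3) was analysed. The authors mapped reads with TopHat 2.0.14 to mm10, counted exons with HTSeq-count without strand, dropped genes of low CPM, and deposited FPKM for the 8 libraries of each of 2 separately scaled tables. The annotation and the calculation of FPKM are not given in the sources used here. Columns of the authors' own comparison (log fold change, log CPM, likelihood ratio, p-value, FDR) were not used.

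Members, lists, and tests were chosen with earlier results of these data known. Named are the members, receptor chains, the up to 3 DE genes with the smallest adjusted p in each other pathway group (Nfkbie, Tab2, Tab3, and Tollip, also DE, are counted only), and the 3 genes most like a member tested in both tables. The unpaired tests of log2(FPKM + 1) were made in limma 3.58.1 (R 4.3.3) and tested on simulated data. Deviations from group means correlated at 0.450 to 0.784 (Th17 and Th0) and 0.662 to 0.769 (iTreg and Th0) between libraries with the same heading beginning, and at -0.590 to 0.434 and -0.576 to 0.248 between others, so the headings pair the libraries. The sources do not say what the headings mark, and the study's own test was pair-wise. By the sample titles, each of 4 experiments gave a library of every group, but no source ties these experiments to the headings. Reads were called whole within 0.02, and Th0 reads were equal in both tables for 24 of 24 values. No count test was run, since depths are relative only. Positions are from GENCODE M21. Python 3.11.15, numpy 2.4.6, scipy 1.17.1, and pandas 2.3.3 were used. Alternatives were the pseudocount, filter, scaling, FDR, limma-trend, the block, and leaving out each library.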

Additional observations from a re-analysis of the deposited data

Results flagged for a closer look

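In 13 groups of 4 libraries, the gap between the highest or lowest library and its nearest neighbour was compared with Dixon's critical value for 4 values (95%), which chance passes in about 1 of 20 groups. In the Th17 group, Il18rap was at 0.704 FPKM in M43_5 and at 0.326 to 0.373 FPKM in the other libraries, a gap of 0.875 of the range. M43_5 is also the Th17 library with Foxp3 at 42.5 FPKM, and without it the difference of Il18rap from Th0 cells was -0.59 on the log2 scale. In the Th0 group, Il1rn was at 0.0469 FPKM in M29_1, which is 1 read, and at 0 FPKM in the other libraries.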

How the results depend on the processing

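No result reversed its direction. Il1r1 in Th17 cells and Il18rap in iTreg cells kept their calls under all 16 alternatives, with log2 fold changes from 3.43 to 6.38 and from 1.20 to 1.90. Both were tested only because their treated libraries were over the filter on low values, which limits these calls. With the replicate block, the counts rose from 1983 to 3882 DE genes, from 1 to 3 members, and from 12 to 21 pathway genes in Th17 cells, and from 1691 to 4170 genes and from 16 to 26 pathway genes in iTreg cells. The block brought Il1r2 (-0.77) and Il18r1 (0.47) of the Th17 comparison and Il1r2 (-0.84) of the iTreg comparison past the FDR and ended the call of no member. An FDR of 0.01 left 995 genes in Th17 cells, and 778 genes, 1 member, and 9 pathway genes in iTreg cells, without Il18r1 (1.60). Without the filter, 2 members were DE in Th17 cells. Pseudocounts of 0.1 and 0.5 gave -1.10 and -0.71 for Il18rap in Th17 cells and 3.63 and 1.82 for Il1rn in iTreg cells, since low values weigh more.

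Leaving out a library gave 1364 to 2237 genes, 1 member, and 10 to 14 pathway genes in Th17 cells, and 1140 to 1521 genes, 1 to 2 members, and 10 to 14 pathway genes in iTreg cells. The 16 pathway genes of the iTreg comparison became 10 without M22_1, M22_4, or M43_4. Without a library, the log2 fold change was 3.43 to 3.95 for Il1r1, -1.15 to -0.46 for Il1r2, 0.24 to 0.79 for Il18r1, and -0.59 to -0.46 for Il18rap in Th17 cells. In iTreg cells it was 1.34 to 1.92 for Il18r1, 1.20 to 1.45 for Il18rap, -1.23 to -0.54 for Il1r2, and 1.04 to 1.43 for Il1rn. Other scalings moved the median of all genes by less than 0.1 on the log2 scale. Levels of Il1r2 in the M42 libraries (2 to 6 reads) and of Il1r1 and Il1rn in Th0 cells are too low for a precise fold change.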
